A study of Mus musculus with 8 samples.

Results

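Clock output genes carry the time signal of the circadian clock to the rest of the cell, and 9 of them were followed here in mouse aorta: *Dbp*, *Tef*, *Hlf*, *Nfil3*, *Ciart*, *Bhlhe40*, *Bhlhe41*, *Rora* and *Usp2*. They were chosen by gene symbol from the 21859 gene rows of the count files, and all 9 were found. Transcription factors or transcriptional repressors are encoded by 8 of them, while *Usp2* encodes a deubiquitinase, an enzyme that removes ubiquitin from proteins. RNA was sequenced from whole aortas of 4 ApoE-/- and 4 wild-type (WT) mice, 1 library per mouse. All mice were 40-week-old males fed a normal (chow) diet, and the methods describe mice as fasted before they were euthanized. ApoE-/- mice lack apolipoprotein E in every tissue from the germline on, clear remnant lipoproteins poorly and develop atherosclerosis. WT mice were C57BL/6, and the methods describe the ApoE-/- line as also on the C57BL/6 background. Whether the WT mice were littermates of the knockouts is not given in the sources used here. The hour at which each aorta was collected is also not given in the sources used here, so for genes whose level follows the time of day a difference between genotypes and a difference in collection time cannot be told apart.

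In the core loop of the clock, ARNTL (BMAL1) with CLOCK or NPAS2 switches on genes through E-box elements, and the PER and CRY proteins made from some of these genes switch them off again. The output factors take this rhythm further. DBP, TEF and HLF, the PAR bZIP family, activate genes that carry a D-box, NFIL3 (E4BP4) represses through the same element, CIART (CHRONO), BHLHE40 (DEC1) and BHLHE41 (DEC2) repress E-box genes, and RORA activates genes with a ROR element, among them *Arntl*. The artery wall has a clock of its own, in smooth muscle and endothelium, and vascular tone follows it.

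The promoters were searched for these elements because the core loop and the output factors act on genes through them. RefSeq promoters (GRCm38.p6, from 250 bases before to 50 bases after the start of transcription) were matched by symbol for 8 of the 9 genes. *Bhlhe40* was not matched. The E-box CACGTG was found, on a palindromic site that reads the same on both strands, in promoters of 3 genes, *Tef*, *Ciart* and *Bhlhe41*, and in 7.15% of the 32851 promoters of the same length. The D-box, searched as TTATGTAA or TTATGCAA on both strands, was found in 0 of the 8 matched genes and in 1.66% of all promoters. The ROR core TAGGTCA was found in *Nfil3* alone and in 2.61% of all promoters, on both strands. No motif overlapped another. The windows around the matches are shown 5′ to 3′ on the strand of the gene, with the motif in capitals (in *Nfil3* it stands as its reverse complement). *Ciart* has 3 E-boxes, which begin 116, 58 and 44 bases before its start, and *Tef* has an E-box in each of its RefSeq promoters searched here.
Ciart, chr3:95882257-95882354, minus strand, inside an intron of the antisense gene C920021L13Rik: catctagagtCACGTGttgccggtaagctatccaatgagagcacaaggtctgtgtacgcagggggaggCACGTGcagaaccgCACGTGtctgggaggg
Tef, upstream start, chr15:81802536-81802561, plus strand, in an annotated exon: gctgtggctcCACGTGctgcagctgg
Tef, downstream start, chr15:81811246-81811311, plus strand, in an intron: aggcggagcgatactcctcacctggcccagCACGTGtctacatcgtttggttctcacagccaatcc
Bhlhe41, chr6:145865558-145865583, minus strand, at the edge of its first exon: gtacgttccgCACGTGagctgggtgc
Nfil3, chr13:52981040-52981061, minus strand, in an annotated exon: cgctcggaacTGACCTActaac
These matches describe the sequence and do not show that a factor binds there. Sequence outside the promoters was not searched, so a gene without a match here may carry the element elsewhere. Members are counted by gene, with 9 promoters searched for the 8 matched genes, whereas the percentages are of single promoters.

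Between 18375898 and 23940156 read pairs were counted on genes per library, and every member had at least 54 counts in every library, so all 9 passed the filter on low counts and counting error was small beside the spread between mice. Values are counts per 1000000 counts on genes, with library sizes scaled by edgeR's TMM method (CPM). *Apoe* lay between 14.7 and 36.3 CPM in ApoE-/- mice and between 536 and 857 CPM in WT mice, as the labels say. Replicate 1 of the ApoE-/- mice stood apart from the other libraries: the 7 smooth muscle markers summed to 4708 CPM there and to 10496 to 19819 CPM in the other 7 aortas, so results that rest on it are given with and without it. The shares of pairs also differed by genotype without overlap. Pairs that matched no counted feature (no feature) were 50.1% to 54.7% in ApoE-/- and 56.4% to 58.0% in WT libraries. Those counted on genes were 32.3% to 35.6% and 27.9% to 30.2%. Whether the pairs without a feature lay inside or outside genes is not given. The part of this difference in the results for *Tef*, *Hlf*, *Usp2* and *Bhlhe40* was not tested. Smooth muscle, endothelial and fibroblast markers were present in all 8 libraries. In whole tissue, fewer cells of a type and less RNA per cell cannot be told apart. A gene on the opposite strand overlaps 7 of the 9 members in the GENCODE M21 annotation (GRCm38), with exons of both genes overlapping in 6. The libraries preserve strand and the deposited counts are named as stranded, and the direction that was counted is not given in the sources used here.

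Of the 9 genes, 0 passed an adjusted p of 0.05 in edgeR's quasi-likelihood test over all 15077 genes tested, where 0.464% of genes passed. *Hlf*, *Tef* and *Usp2* nevertheless lay below the WT range in every ApoE-/- aorta, *Bhlhe40* lay above it in every ApoE-/- aorta, and *Dbp*, *Nfil3*, *Ciart*, *Bhlhe41* and *Rora* overlapped. These 4 non-overlapping genes of 9 stand beside 8.71% of all genes tested, the 3 lower ones beside 3.3% and the higher one beside 5.41%. The same 4 had an unadjusted p under 0.05, as did 11.4% of all genes tested. DESeq2, the tool named in the study's methods, called these 4 genes at an adjusted p under 0.05, and 4.97% of the genes for which it gave an adjusted p. The calls of the 4 genes therefore depend on the tool, while their direction does not. The median log2 fold change (ApoE-/- over WT) was −0.18 over the 9 members and 0.05 over all genes tested.

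**Figure D1:**
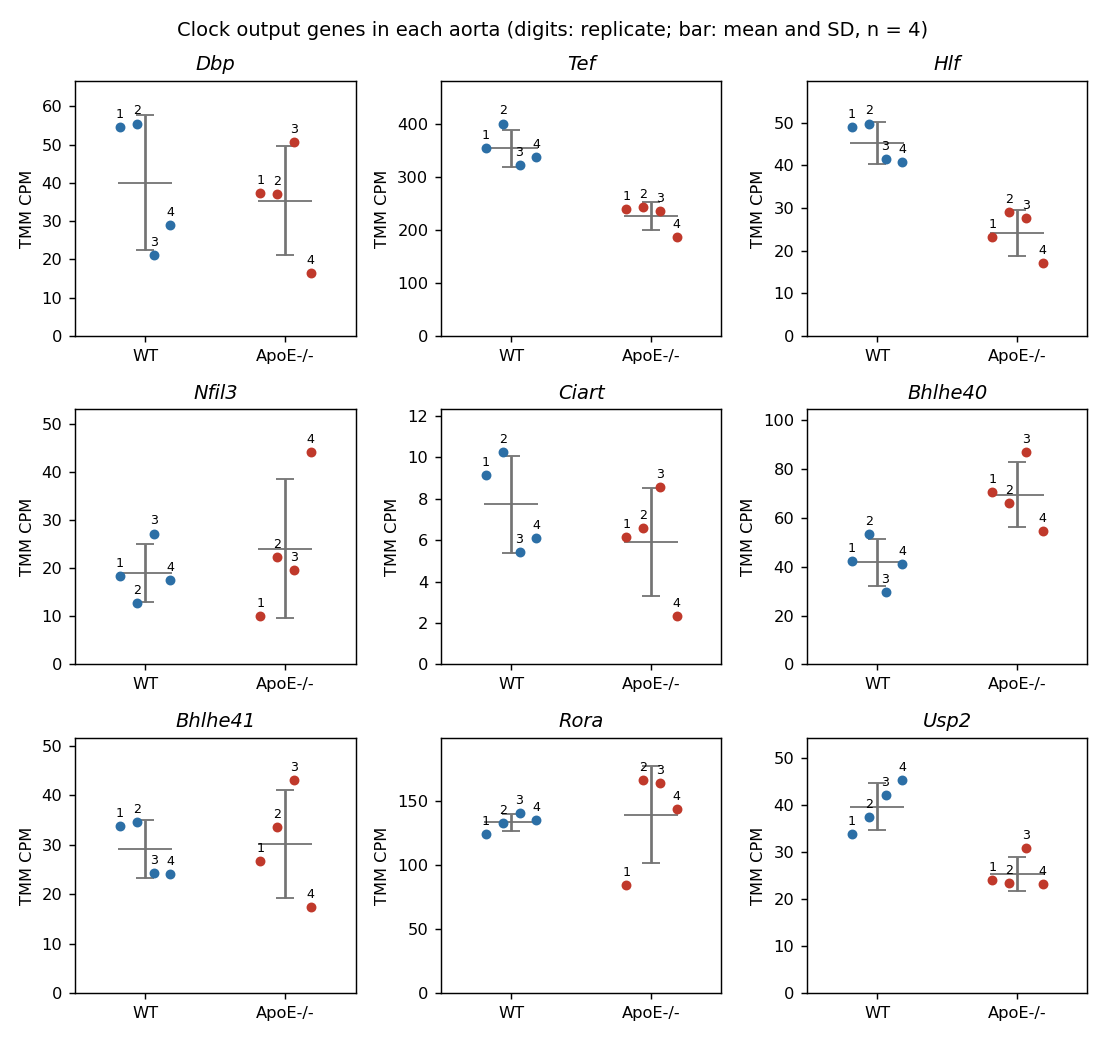
Level of each clock output gene in each aorta, in TMM CPM on a linear axis from 0, with WT in blue, ApoE-/- in red, the replicate number above each point, and the mean and SD (n = 4) in grey. Tef, Hlf and Usp2 are lower and Bhlhe40 is higher in every ApoE-/- aorta than in any WT aorta, and the other 5 genes overlap.

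Among the D-box activators, *Hlf* (chromosome 11, 90336536 to 90390895, GRCm38) had the log2 fold change furthest from 0 of the 9 genes. It had 23.3, 29.0, 27.7 and 17.1 CPM in ApoE-/- replicates 1 to 4 and 49.0, 49.8, 41.5 and 40.7 CPM in WT replicates 1 to 4. The highest ApoE-/- value was below the lowest WT value. The mean was 24.2 ± 5.38 CPM (SD, n = 4) against 45.2 ± 4.81 CPM (SD, n = 4), or −0.90 on the log2 scale (SE 0.18). The adjusted p was 0.0668 in edgeR and 0.000488 in DESeq2.

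*Tef* (chromosome 15, 81802421 to 81826863) encodes the most abundant PAR bZIP transcript of these aortas. It had 239, 244, 237 and 186 CPM in ApoE-/- replicates 1 to 4 and 356, 402, 323 and 337 CPM in WT replicates 1 to 4. The 3 ApoE-/- aortas other than replicate 4 lay close together, and all 4 were below the WT mice. On the log2 scale the difference was −0.64 (SE 0.14), with an adjusted p of 0.0818 in edgeR and of 0.000128 in DESeq2. Without ApoE-/- replicate 1, it was −0.67 and passed the threshold in edgeR (adjusted p = 0.0462), where 3.91% of all genes passed. In edgeR this was the only one of the 8 fits with 1 mouse left out that called *Tef*, and the adjusted p reached 0.238 in the others. In the same fit, *Hlf* had a log2 fold change of −0.88 (edgeR adjusted p = 0.0524).

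*Dbp* (chromosome 7, 45705088 to 45710203), the family member whose level usually swings most over the day, differed more between mice of a genotype than between genotypes. It had 37.3, 37.2, 50.7 and 16.4 CPM in ApoE-/- replicates 1 to 4 and 54.5, 55.5, 21.2 and 29.1 CPM in WT replicates 1 to 4. WT mice formed a higher and a lower pair, and ApoE-/- mice covered nearly the same range. edgeR gave a log2 fold change of −0.18 (SE 0.41), and its 95% interval from −1.12 to 0.76 leaves room for a difference as large as that of *Hlf*. *Dbp* lies 26.0 Mb from *Apoe* on the same chromosome, and its exons overlap those of *Sphk2* on the opposite strand. Within a library, the ratio of *Hlf* to *Dbp* CPM was 0.624, 0.779, 0.546 and 1.04 in ApoE-/- replicates 1 to 4 and 0.899, 0.897, 1.96 and 1.40 in WT replicates 1 to 4, with overlap. The ratio of *Hlf* to *Tef* was between 0.0916 and 0.119 in ApoE-/- mice and between 0.121 and 0.138 in WT mice, a gap smaller than the counting error of *Hlf*. Both ratios were chosen for description after the values were seen. Whether the genotype difference of *Dbp* differs from those of *Hlf* and *Tef* was not tested.

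*Nfil3* (chromosome 13, 52967209 to 52981073), the repressor at the D-box and a gene that immune cells also use, had 10.1, 22.3, 19.6 and 44.1 CPM in ApoE-/- replicates 1 to 4 and 18.5, 12.8, 27.2 and 17.5 CPM in WT replicates 1 to 4. ApoE-/- mice spanned both ends of the range, a 4.39-fold spread that was the widest of any member in either genotype. With a log2 fold change of 0.34 and an SE of 0.43, it was far from the edgeR threshold (adjusted p = 0.840), and the sign turned to negative (−0.13) when ApoE-/- replicate 4 was left out. In both genotypes the aorta with the lowest *Dbp* was the one with the highest *Nfil3*. The ratio of *Nfil3* to *Dbp* CPM was 0.270, 0.600, 0.387 and 2.70 in ApoE-/- replicates 1 to 4 and 0.339, 0.230, 1.29 and 0.603 in WT replicates 1 to 4. ApoE-/- replicate 4 and WT replicate 3 were the only libraries with more *Nfil3* than *Dbp* CPM.

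**Figure D2:**
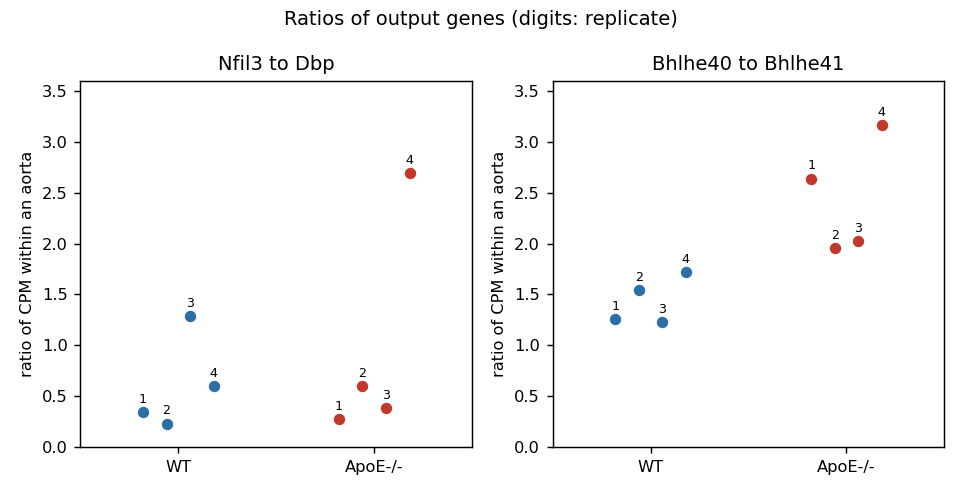
Ratio of CPM of a pair of output genes within each aorta, on a linear axis from 0, with WT in blue, ApoE-/- in red and the replicate number above each point. For Nfil3 to Dbp the genotypes overlap and ApoE-/- replicate 4 is highest at 2.70, and for Bhlhe40 to Bhlhe41 the 4 ApoE-/- aortas lie above the 4 WT aortas.

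Of the E-box repressors, *Bhlhe40* (chromosome 6, 108660629 to 108666925) was the only member with higher values in every ApoE-/- mouse. It is also induced by low oxygen and by cytokines in many cells. It had 70.4, 65.9, 87.0 and 54.8 CPM in ApoE-/- replicates 1 to 4 and 42.5, 53.5, 29.8 and 41.3 CPM in WT replicates 1 to 4. The gap between the genotypes was narrow, from 53.5 CPM in the highest WT mouse to 54.8 CPM in the lowest ApoE-/- mouse. Its log2 fold change was 0.73 (SE 0.20), and the adjusted p was 0.163 in edgeR and 0.0345 in DESeq2. DESeq2 lost this call when ApoE-/- replicate 2 or 3 or WT replicate 1, 3 or 4 was left out, with adjusted p up to 0.166. Macrophage markers moved with it: all 8 lay higher in every ApoE-/- aorta than in any WT aorta (as 5.41% of all genes did), with summed levels of 363 to 1654 CPM against 212 to 313 CPM, and edgeR called *Trem2* among them. Within the ApoE-/- mice, replicate 4 had the highest macrophage sum and the lowest *Bhlhe40*. The part of the macrophage content in this result was not tested.

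*Bhlhe41*, its close relative (chromosome 6, 145858243 to 145865558), had 26.7, 33.7, 43.0 and 17.3 CPM in ApoE-/- replicates 1 to 4 and 33.7, 34.7, 24.3 and 24.0 CPM in WT replicates 1 to 4, with ApoE-/- mice both above and below the WT range. Its log2 fold change was 0.05 (SE 0.27, 95% interval −0.58 to 0.68). The ratio of *Bhlhe40* to *Bhlhe41* CPM within a library was 2.64, 1.96, 2.02 and 3.17 in ApoE-/- replicates 1 to 4 and 1.26, 1.54, 1.23 and 1.72 in WT replicates 1 to 4. This ratio, chosen for description after the values were seen, did not overlap between genotypes.

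*Ciart* (chromosome 3, 95878503 to 95882251), whose promoter carries the 3 E-boxes shown above, had 6.13, 6.60, 8.58 and 2.34 CPM in ApoE-/- replicates 1 to 4 and 9.13, 10.3, 5.43 and 6.08 CPM in WT replicates 1 to 4. Its order among the mice was close to that of *Dbp*, with ApoE-/- replicate 4 lowest and WT replicates 1 and 2 above WT replicates 3 and 4. The genotypes differed by −0.39 on the log2 scale (SE 0.39, 95% interval −1.28 to 0.51). It was −0.12 without ApoE-/- replicate 4 and −0.62 without ApoE-/- replicate 3.

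*Rora* (chromosome 9, 68653786 to 69388246), the ROR element activator, had 84.3, 166, 163 and 143 CPM in ApoE-/- replicates 1 to 4 and 124, 133, 141 and 135 CPM in WT replicates 1 to 4. The WT mice differed by a factor of 1.13, and ApoE-/- replicate 1, the library with few smooth muscle transcripts, was the lowest of all 8. The log2 fold change was 0.07 (SE 0.20, 95% interval −0.40 to 0.53). Without that replicate it was 0.25 (SE 0.099) and did not pass (adjusted p = 0.236 in edgeR), and the 3 remaining ApoE-/- aortas lay above all WT aortas, as 17.3% of all genes then did in one direction or the other. The part of the smooth muscle content in this result was not tested.

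*Usp2* (chromosome 9, 44067021 to 44095627), the deubiquitinase, had 24.0, 23.3, 30.8 and 23.3 CPM in ApoE-/- replicates 1 to 4 and 33.9, 37.5, 42.0 and 45.2 CPM in WT replicates 1 to 4. All ApoE-/- values were below all WT values, and ApoE-/- replicate 3 came closest. They differed by −0.65 on the log2 scale (SE 0.14), with an adjusted p of 0.0821 in edgeR and of 0.00227 in DESeq2.

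**Figure D3:**
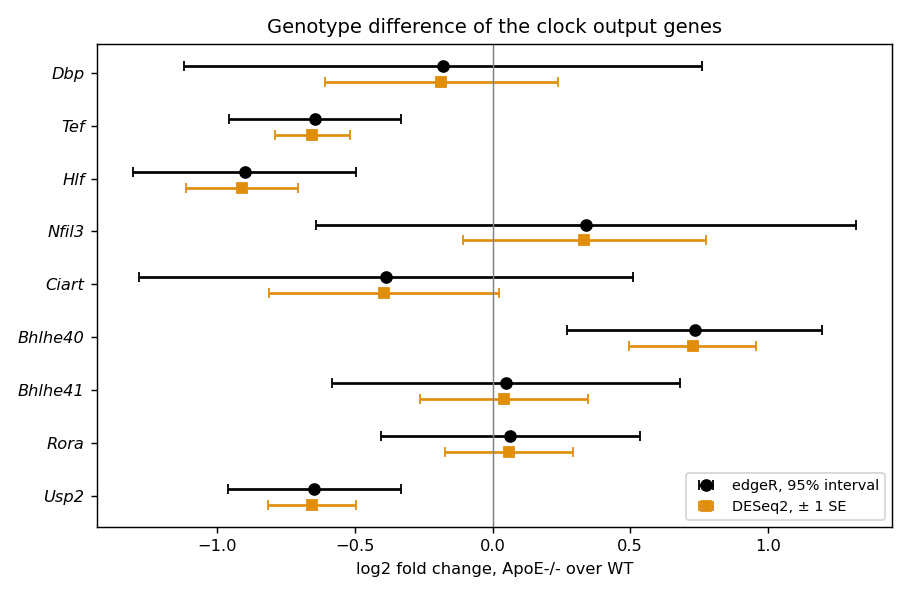
Log2 fold change of ApoE-/- over WT for the 9 genes, with black circles and 95% intervals from edgeR and orange squares with 1 SE from DESeq2. The intervals of Tef, Hlf and Usp2 lie below 0 and that of Bhlhe40 above 0, before any adjustment for the number of genes tested, and the intervals of the other 5 genes cross 0.

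Cardiac muscle markers moved in the same direction as *Tef*, *Hlf* and *Usp2*. All 8 tested were lower in ApoE-/- mice on average, as were 6330 of all 15077 genes tested. Of these 8 markers, 7 were lower without overlap (3.3% of all genes were). Their summed level was 160 to 342 CPM in ApoE-/- and 414 to 717 CPM in WT mice. *Myl2*, a defining marker of ventricle, did not pass the filter on low counts, and *Ryr2*, which the aorta also expresses, had a log2 fold change of −0.02. Without *Ryr2*, the other 7 markers summed to 129, 23.6, 47.6 and 36.2 CPM in ApoE-/- replicates 1 to 4 and to 508, 222, 285 and 304 CPM in WT replicates 1 to 4. Within the ApoE-/- mice replicate 1 had the highest such sum and replicate 2 the lowest, and *Tef* and *Hlf* were lowest in replicate 4, with *Usp2* level in replicates 2 and 4. Within the WT mice replicate 1 had the highest such sum and replicate 2 the lowest, and *Tef* and *Hlf* were highest in replicate 2 and *Usp2* lowest in replicate 1. Endothelial markers were lower on average as well (8 of 8, 3 without overlap beside the same 3.3%, summed level 1625 to 2513 CPM against 2304 to 2839 CPM). The parts of these tissues in the 3 results were not tested.

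Compared per kilobase of exon, the order of levels in WT mice began with *Tef* at 45.0 ± 4.36 CPM per kb (SD, n = 4). *Dbp* (13.4 ± 5.87), *Rora* (10.2 ± 0.524), *Nfil3* (9.37 ± 2.97), *Bhlhe40* (8.88 ± 2.06) and *Usp2* (8.23 ± 1.03) followed, and neighbours in this group differed by less than the larger of their SDs. *Hlf* had 6.77 ± 0.720, *Bhlhe41* 4.34 ± 0.866 and *Ciart* 3.42 ± 1.03 CPM per kb, of which the last pair differed by less than its SD. In ApoE-/- mice *Tef* again came first at 28.8 ± 3.46 CPM per kb, and *Bhlhe40* came next at 14.8 ± 2.84, within 1 SD of *Nfil3* at 11.9 ± 7.11 and of *Dbp* at 11.8 ± 4.73. *Rora* had 10.7 ± 2.90, *Usp2* 5.26 ± 0.753, *Bhlhe41* 4.49 ± 1.62, *Hlf* 3.63 ± 0.805 and *Ciart* 2.62 ± 1.15 CPM per kb, and from *Usp2* down each differed from the next by less than 1 SD of the more variable gene.

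Some aortas stood at the same end of the range for several members. ApoE-/- replicate 4 was the lowest of the 4 ApoE-/- mice for 7 of the 9 genes (for *Usp2* by less than its rounding, with 23.3 CPM in replicates 2 and 4) and the highest for *Nfil3*. Among the WT mice, replicate 2 was the highest for 6 genes and the lowest for *Nfil3*. The shares of all genes that were lowest or highest in these libraries were not computed. The ratio of the highest to the lowest ApoE-/- value was 3.66 for *Ciart*, 3.10 for *Dbp*, 2.49 for *Bhlhe41* and 1.97 for *Rora*. It was 1.70 for *Hlf*, 1.59 for *Bhlhe40*, 1.32 for *Usp2* and 1.31 for *Tef*. Among the WT mice it ranged from 1.13 for *Rora* to 2.62 for *Dbp*, with 1.80 for *Bhlhe40*.

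**Figure D4:**
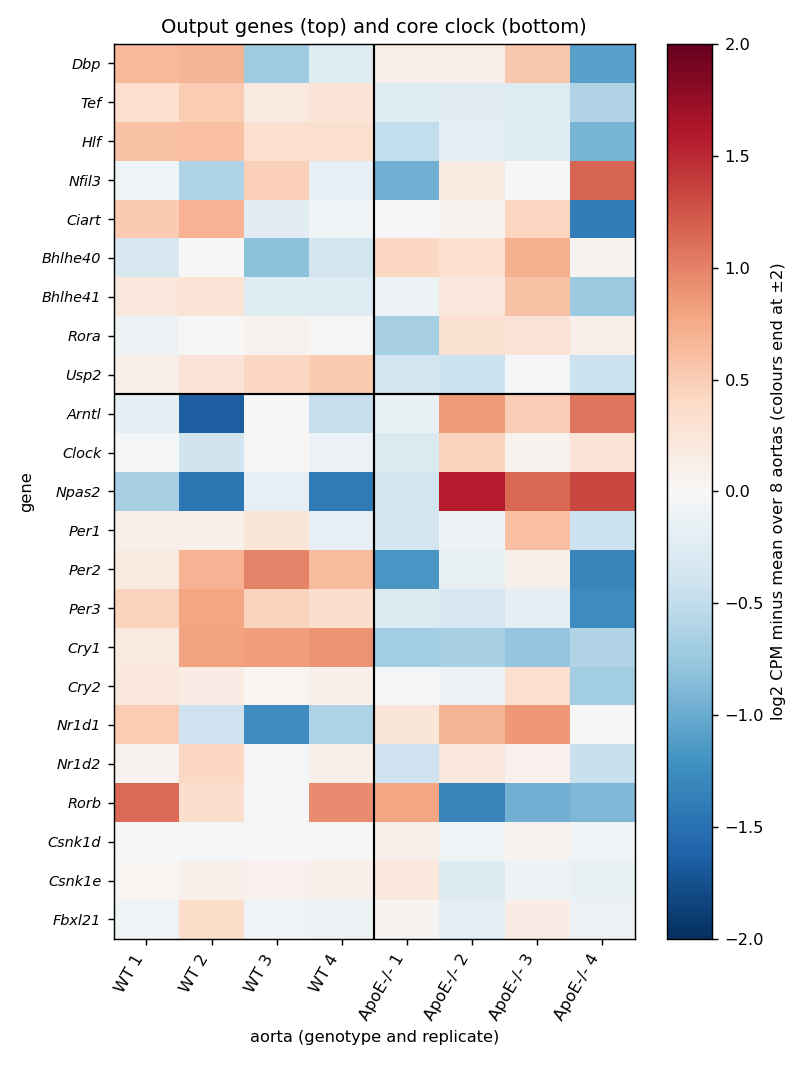
Log2 CPM of each output gene (above the line) and of the core clock genes named in the text (below it) in each aorta, minus the mean of that gene over the 8 aortas, with red higher and blue lower and colours ending at 2 in either direction. Per2, Per3 and Cry1 share the lower ApoE-/- values of Tef, Hlf and Usp2, and ApoE-/- replicate 4 is lowest for most output genes.

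The core clock was read beside its outputs in a list of 16 genes, all of which were tested. edgeR called *Cry1*, which encodes a repressor of the loop, and no other, where 0.0929% of all genes were called lower and 0.371% higher. *Cry1* had 8.49 to 9.72 CPM in ApoE-/- and 16.7 to 27.6 CPM in WT mice, and differed by −1.40 on the log2 scale (SE 0.17), with an adjusted p of 0.0355 in edgeR. This edgeR call held in 2 of the 8 fits with 1 mouse left out (without ApoE-/- replicate 1 or WT replicate 1), and was lost in the other 6, with adjusted p up to 0.146. DESeq2 called *Cry1* in all 8 such fits. DESeq2 also called *Per2* (−1.17) and *Per3* (−0.99) lower and *Npas2* (1.92) higher on the log2 scale, where it called 1.75% of genes lower and 3.23% higher. *Per2* had 51.9 to 138 CPM against 148 to 258 CPM, and *Per3* 65.0 to 138 CPM against 200 to 271 CPM, both without overlap. With *Cry1*, 3 of the 16 core clock genes were lower without overlap and 0 higher, beside 3.3% and 5.41% of all genes. *Npas2*, the partner of ARNTL, had 5.84, 22.9, 17.2 and 19.5 CPM in ApoE-/- replicates 1 to 4 and at most 6.87 CPM in WT mice, so ApoE-/- replicate 1 overlapped them. Without that replicate edgeR called 3 core clock genes in place of 1, namely *Cry1*, *Npas2* (2.21 on the log2 scale, SE 0.32, adjusted p = 0.0133) and *Rorb* (−1.82, SE 0.36, adjusted p = 0.0351), where it called 3.91% of all genes. In DESeq2 with 1 mouse left out, *Npas2* was called in 8 of 8 fits, *Per3* in 7 and *Per2* in 4.

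*Arntl*, whose promoter RORA and the NR1D repressors act on, had 18.5, 36.8, 28.7 and 43.0 CPM in ApoE-/- replicates 1 to 4 and 17.9, 6.46, 20.5 and 14.7 CPM in WT replicates 1 to 4. It differed by 1.09 on the log2 scale (SE 0.38), with an adjusted p of 0.290 in edgeR and of 0.0956 in DESeq2. ApoE-/- replicate 1 alone overlapped the WT range. Without it DESeq2 called *Arntl* (1.28 on the log2 scale, adjusted p = 0.00714), in a fit that called 1562 of 15147 genes. Its lowest level was in WT replicate 2 and its highest in ApoE-/- replicate 4, the libraries in which *Dbp* was highest and lowest. *Nr1d1*, which encodes such a repressor, had a log2 fold change of 0.79 (SE 0.37), *Rorb* of −1.04 (SE 0.54), *Clock* of 0.27 (SE 0.18), *Nr1d2* of −0.26 (SE 0.19), *Cry2* of −0.21 (SE 0.19) and *Per1* of −0.10 (SE 0.24), with an edgeR adjusted p of at least 0.488 for each. DESeq2 called *Nr1d1* when WT replicate 1 was left out (1.19 on the log2 scale, adjusted p = 0.00786), in a fit that called 472 of 15236 genes. Of the kinases and ubiquitin ligase subunits that set the stability of PER and CRY, *Csnk1d*, *Csnk1e* and *Fbxl21* had log2 fold changes of 0.02, −0.15 and −0.06. DESeq2 called *Csnk1e* without ApoE-/- replicate 1 (−0.26, adjusted p = 0.0352), in the fit that called 1562 of 15147 genes. The median over the 16 genes was −0.16, with 11 below 0, beside 6330 of all 15077 genes tested. The parts of collection time, of the differing shares of pairs, and of cardiac and endothelial content in these core clock values were not tested.

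Downstream of the output factors, 4 of 6 listed PAR bZIP targets were tested and edgeR called 0, as did DESeq2, with 0 at an unadjusted p under 0.05. The median log2 fold change was −0.42, and *Cyp2b10*, a detoxifying enzyme, had the largest value at −1.69 (SE 0.74), with 3.05 to 45.3 CPM in ApoE-/- and 22.9 to 93.8 CPM in WT mice. Of 6 other outputs that cycle in many tissues, all 6 had a log2 fold change below 0 (median −0.52), as did 6330 of all 15077 genes tested. edgeR called 0 of them, with 3 at an unadjusted p under 0.05 (11.4% of all genes). DESeq2 called *Coq10b* (coenzyme Q binding) lower, as it did 1.75% of all genes, with 40.1 to 54.7 CPM against 59.1 to 74.2 CPM and a log2 fold change of −0.52 (SE 0.13).

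Lists of genes that answer to stimuli which also act on the members were counted in the same way. edgeR called 0 of 9 glucocorticoid-responsive genes (median −0.18, 3 at an unadjusted p under 0.05, beside 11.4% of all genes). *Tsc22d3* is on this list and also on that of the outputs that cycle in many tissues. DESeq2 called *Mt2*, a metallothionein, higher, as it did 3.23% of all genes, with 58.0 to 160 CPM in ApoE-/- and 28.2 to 46.9 CPM in WT mice. Of 10 tested hypoxia-responsive genes, both tools called 0 (median 0.03, 1 at an unadjusted p under 0.05), and *Vegfa* had the largest value at −0.51. Of 8 immediate early genes and of 6 fasting-responsive genes both tools called 0 (DESeq2 gave no adjusted p for *Fosb*), and 0 of either had an unadjusted p under 0.05. Their medians were −0.08 and −0.54, and the largest values were those of *Fosb* at 1.00, which rested on 173 CPM in ApoE-/- replicate 3, and of *Ucp3* at −0.80.

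**Figure D5:**
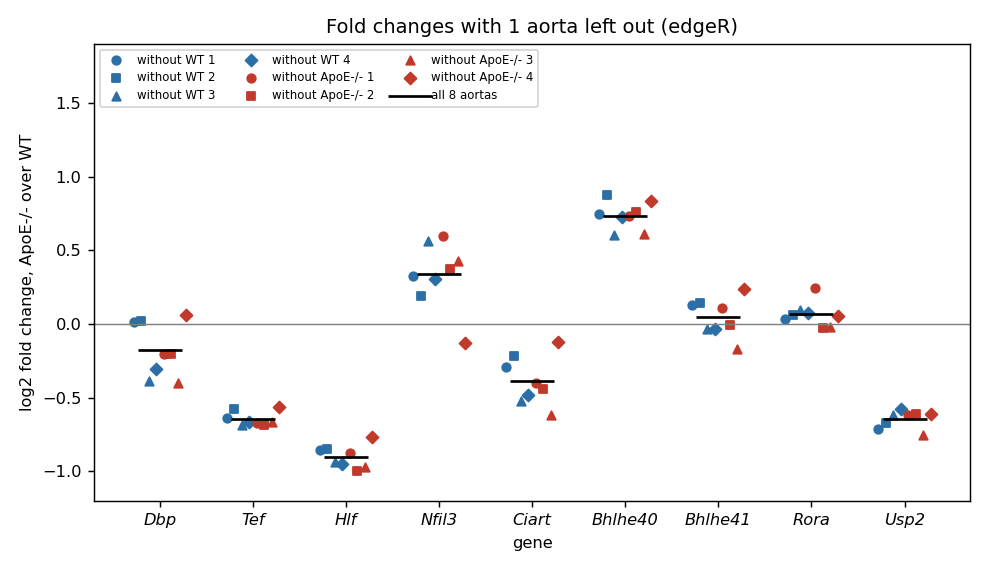
Log2 fold change (edgeR, ApoE-/- over WT) of each output gene with 1 aorta left out, in blue where it was a WT and in red where it was an ApoE-/- aorta, with the marker shape giving its replicate and the black bar giving the value from all 8. Tef, Hlf and Usp2 stay below and Bhlhe40 above 0 in all 8 fits, and Dbp, Nfil3, Bhlhe41 and Rora cross 0.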

How the data were processed

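The deposited values are the authors' raw counts for each gene and mouse, neither normalized nor pooled, from paired-end sequencing of stranded libraries after ribosomal RNA was removed. The submitters' processing notes name TopHat2, HTSeq and the builds GRCm38 and mm10, and the annotation and further options are not given in the sources used here. The 5 summary rows of each file, which held 64.4% to 72.1% of all pairs, were left out of library sizes and tests. Reads without molecular identifiers are not independent molecules, so counting error covers sampling only.

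Genotypes (4 against 4 mice, from the sample titles) were compared with edgeR 4.0.16 in R 4.3.3: filterByExpr (15077 of 21859 genes kept), TMM, glmQLFit with robust = TRUE and glmQLFTest, two-sided, with Benjamini-Hochberg adjustment over all genes tested and a threshold of 0.05. A standard error is the log2 fold change divided by the square root of F, and 95% intervals use the test's degrees of freedom. Fits were tested on simulated data with known changes. Alternatives were DESeq2 1.42.0 (without independent filtering), limma-voom 3.58.1, other scaling, other filters, no robust estimation, a replicate block and leaving out each mouse. Leaving out each mouse in DESeq2 was added after seeing the data.

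The genes named were the 9 members, the core clock list, *Apoe*, called or otherwise largest genes of the other lists, and, for *Dbp*, *Nfil3*, *Bhlhe40* and *Rora*, the 3 genes outside the members with the closest profiles. Some genes of the core clock list are counted but not reported here by name. Other names were chosen after their values were seen. The members and lists were chosen with earlier results of these data known. Lengths and coordinates came from GENCODE M21 (GRCm38) and promoters from RefSeq (GRCm38.p6).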

Additional observations from a re-analysis of the deposited data

Results flagged for a closer look

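Within each genotype, the gap between the highest or lowest mouse and its nearest neighbour was divided by the range of the 4 mice, for the 9 output genes, the core clock genes, 4 ratios and 3 marker sums. Dixon's 95% limit was exceeded in 7 of 64 groups of mice, where chance flags about 1 in 20 groups, or 3.2. Among the output genes, this share was 0.873 for *Tef*, where ApoE-/- replicate 4 was low, and 0.898 for *Usp2*, where ApoE-/- replicate 3 was high. For the ratio of *Nfil3* to *Dbp* it was 0.864, where ApoE-/- replicate 4 was high. In the core clock it was 0.846 for *Cry1* (WT replicate 1 low), 0.897 for *Rorb* (ApoE-/- replicate 1 high) and 0.944 for *Fbxl21* (WT replicate 2 high). For the summed cardiac muscle markers it was 0.960, where ApoE-/- replicate 4 was low. Most of that sum in ApoE-/- mice was *Ryr2*, which had 213, 311, 293 and 123 CPM in replicates 1 to 4.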

How the results depend on the processing

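Scaling by DESeq2 size factors or upper quartiles, the other filters and no robust estimation left the direction and call of all 9 output genes as they were. DESeq2 called *Tef* (log2 fold change −0.65), *Hlf* (−0.91), *Usp2* (−0.65) and *Bhlhe40* (0.73), 4 core clock genes in place of 1, 18 genes of the other lists in place of 1 and 725 genes in all in place of 70. limma-voom called 29 genes and 0 of the other lists, and *Bhlhe41* turned to −0.011. Mice 1 to 4 of each genotype are different animals, so the numbers give no pairing by animal, and deviations of same-numbered libraries correlated at 0.06, −0.45, 0.32 and 0.16. With the replicate block, edgeR called 2 genes, 0 of the core clock and 0 of the other lists, and *Bhlhe41* was −0.010. Leaving out 1 mouse at a time, in edgeR or DESeq2, the number of genes called ranged from 0 to 1562, core clock genes from 0 to 7 and genes of the other lists from 0 to 28. edgeR alone gave 0 to 593 genes, with 593 only without ApoE-/- replicate 1, and at most 17 otherwise (1269 to 1922 genes at an unadjusted p under 0.05). The log2 fold change ranged from −0.69 to −0.56 for *Tef*, −1.01 to −0.76 for *Hlf*, −0.76 to −0.58 for *Usp2* and 0.60 to 0.88 for *Bhlhe40*. DESeq2 called the first 3 in all 8 such fits and *Bhlhe40* in 3, whereas edgeR called *Tef* in 1 and *Hlf*, *Usp2* and *Bhlhe40* in 0, with adjusted p up to 0.238, 0.202, 0.252 and 0.392. *Dbp* ranged from −0.41 to 0.058, above 0 without ApoE-/- replicate 4 or WT replicate 1 or 2 (0.058, 0.012 and 0.019 in edgeR). *Ciart* ranged from −0.63 to −0.12. *Nfil3* ranged from −0.13 to 0.60, below 0 without ApoE-/- replicate 4. *Bhlhe41* ranged from −0.18 to 0.24, below 0 without ApoE-/- replicate 2 or 3 or WT replicate 3 or 4. *Rora* ranged from −0.036 to 0.25, below 0 without ApoE-/- replicate 2 or 3. The mean log2 ratio of *Nfil3* to *Dbp* differed by 0.37 between genotypes, and by −0.32 to 0.83 with 1 mouse left out. The causes of these changes were not tested.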

Other observations

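The glucocorticoid-responsive genes *Fkbp5* and *Tsc22d3*, chosen after their values were seen, varied within both genotypes in the libraries that differed in *Dbp*. *Fkbp5*, a chaperone of steroid receptors, had 177 and 185 CPM in WT replicates 3 and 4, where *Dbp* was low, and 89.6 and 96.9 CPM in WT replicates 1 and 2, where *Dbp* was high. In ApoE-/- mice it had 171 CPM in replicate 4, where *Dbp* was lowest, and 69.1 to 107 CPM in the other 3. *Tsc22d3*, a glucocorticoid-induced leucine zipper gene that cycles in many tissues, had 301 and 294 CPM in WT replicates 3 and 4 against 159 and 225 CPM in WT replicates 1 and 2, and 317 CPM in ApoE-/- replicate 4 against 113 to 134 CPM in the other 3.

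Outside the 9 output genes, the tested genes with the profiles most like a member were found by the root mean square difference of centred log2 CPM over the 8 libraries. For *Rora* they were *Smurf2* (0.0493), *Ggcx* (0.0697) and *Luzp1* (0.0749), far closer than the 0.285 by which *Rora* itself varied around its mean. For *Bhlhe40* they were *Glp2r* (0.115), *Dctd* (0.175) and *Ptgir* (0.186), of which *Glp2r* and *Dctd* stayed at or below 2.00 and 1.13 CPM. For *Nfil3* they were *Ackr2* (0.219), *Wnt2* (0.235) and *Eva1a* (0.273). For *Dbp* they were *Olfr267* (0.290), *Rnasek* (0.302) and *Sox8* (0.307), of which *Olfr267* and *Rnasek* stayed at or below 1.01 CPM, and no core clock gene was among them. Of the output genes themselves, *Ciart* (0.233) was closer to *Dbp* than these, and *Bhlhe41* (0.305) was closer than *Sox8*.

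Of the other marker lists, the 7 smooth muscle, 8 skeletal muscle and 7 adipocyte markers tested had medians of −0.11, 0.13 and −0.48, and 0 of each were called by edgeR (0, 2 and 0 at an unadjusted p under 0.05; 0, 1 and 0 in DESeq2). For 6 fibroblast and 6 T cell markers the medians were 0.48 and 0.69, with 0 called by edgeR, 2 of each at an unadjusted p under 0.05, and 2 and 0 called by DESeq2. The macrophage, cardiac and endothelial medians were 1.42, −2.61 and −0.38, with DESeq2 calling 5, 5 and 3. Over all genes, 11.4% had an unadjusted p under 0.05, and DESeq2 called 3.23% higher and 1.75% lower.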
